A study of Drosophila melanogaster with 3 samples.

Results

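The genes of the mitochondrial ribosomal proteins were taken as all protein-coding genes of the Ensembl BDGP6 annotation whose symbol begins with mRpL (large subunit) or mRpS (small subunit). There were 73 of them among 13945 protein-coding genes on 6 chromosome arms, 47 for the large and 26 for the small subunit. The mitochondrial ribosome translates the few proteins that mitochondrial DNA encodes, all of them parts of the respiratory chain or of ATP synthase. All of its proteins are encoded in the nucleus, made in the cytosol and imported, so their genes stand in nuclear chromatin scattered over the arms. Many descend from bacterial ribosomal proteins and keep the bacterial number, whereas the higher numbers were given to proteins particular to mitochondria. In bacteria the small subunit decodes the messenger RNA, and the large subunit forms the peptide bond and the exit tunnel.

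The data were chromatin immunoprecipitations followed by sequencing from whole Drosophila melanogaster embryos of both sexes, aged 0 to 24 h, of the transgenic strain CG18619-GFP. An antibody against GFP was used, and the labels disagree on whether the tag sits on REPTOR or on REPTOR-BP (CG18619), bZIP transcription factors that act together when the growth kinase complex TORC1 is inhibited. The 3 biological replicates, numbered 1, 2 and 4, came from separate biosamples of that line and form 1 group, with no untagged or treated group among them. Binding across all cell types of the embryo is averaged, and no expression was measured. The authors' optimal list held 5208 peaks and each replicate list 30000 regions. A member was called when a summit, the point of highest signal in a region, lay within 500 bp of any of its start sites, in the optimal list or among the 5208 strongest regions of a replicate. The signal value is the authors', on the scale of its own list, and the sequencing depth is unknown.

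A peak of the tagged protein lay at the promoter of 30 of the 73 members (41.1%, 95% Wilson interval 30.5 to 52.6), where 20.6% of all protein-coding genes had one. These 30 members had 30 different peaks, and 29 of the peaks stood in a promoter shared head to head with another gene. So did the peaks of 1454 of the 2840 other genes with a peak. Among the 31 partner genes of the members, some, such as HtrA2, Mitofilin and Taz, are known to act in mitochondria. The share of such genes among all genes is not given here, so these names do not set the partners apart. Summits lay upstream of the member's own start at 29 of the 30 members (96.7%), as they did at 88.1% of the other genes with a peak. A separate feature, the hexamer CAGCTG, lay within 50 bp of the start in 35 of the 73 members, with and without a peak (47.9%, all genes 9.34%). Within 50 bp of the summit it was at none of the 30 peaks, where 5.40% of other promoter peaks had it. Within 100 bp of the summit it was at 4 of the 30 (13.3%), close to the 12% of other promoter peaks.

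The following stretches show what lay under the strongest peaks with a summit between the start of a member and that of its partner, except mRpL34, which is not shown. They are the exon-free parts of the intervals between a member and its partner, read from the RefSeq Release 6 assembly on the plus strand: chr3R:15229424-15229623 for mRpS10 and Art3, chr2L:13835349-13835548 for mRpS23 and CenG1A, chr2L:4945372-4945571 for mRpL24 and betaggt-I, chr2L:4850441-4850640 for mRpS2 and Mon1, chr3L:13018052-13018251 for mRpL20 and Icmt, chr3L:4364309-4364508 for mRpS6 and Cip4, and chr2L:10386369-10386568 for mRpS7 and Cdk1. Each is 200 bases long, with the summit at its middle, or nearer its end for mRpS2. Capitals mark matches, on either strand, to the 11 motifs searched: the TATA motif TATAAA in mRpL24, mRpS2 and mRpS7, and the forkhead motif TGTTTAC in mRpS10.
mRpS10: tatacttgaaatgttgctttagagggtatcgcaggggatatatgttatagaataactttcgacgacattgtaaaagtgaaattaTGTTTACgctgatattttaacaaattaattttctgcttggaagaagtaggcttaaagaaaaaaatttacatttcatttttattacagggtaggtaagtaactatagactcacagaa
mRpS23: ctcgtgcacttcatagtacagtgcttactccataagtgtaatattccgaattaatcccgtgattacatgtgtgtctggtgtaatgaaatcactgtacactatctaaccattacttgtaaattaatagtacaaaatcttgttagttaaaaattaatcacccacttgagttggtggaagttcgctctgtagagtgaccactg
mRpL24: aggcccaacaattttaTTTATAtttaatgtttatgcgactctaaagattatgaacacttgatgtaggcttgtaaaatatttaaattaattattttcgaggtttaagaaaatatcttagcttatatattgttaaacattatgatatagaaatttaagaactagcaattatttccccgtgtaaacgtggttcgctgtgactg
mRpS2: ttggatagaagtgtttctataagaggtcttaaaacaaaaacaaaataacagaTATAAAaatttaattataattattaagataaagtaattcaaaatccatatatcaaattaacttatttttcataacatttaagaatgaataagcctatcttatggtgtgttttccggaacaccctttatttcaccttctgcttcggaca
mRpL20: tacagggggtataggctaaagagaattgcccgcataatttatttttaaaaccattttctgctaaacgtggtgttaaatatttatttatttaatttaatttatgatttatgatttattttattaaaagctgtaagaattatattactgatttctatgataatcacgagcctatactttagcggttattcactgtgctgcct
mRpS6: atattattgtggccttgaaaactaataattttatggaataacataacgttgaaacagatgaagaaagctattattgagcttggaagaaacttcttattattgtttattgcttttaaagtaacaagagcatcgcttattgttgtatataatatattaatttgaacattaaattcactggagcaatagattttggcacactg
mRpS7: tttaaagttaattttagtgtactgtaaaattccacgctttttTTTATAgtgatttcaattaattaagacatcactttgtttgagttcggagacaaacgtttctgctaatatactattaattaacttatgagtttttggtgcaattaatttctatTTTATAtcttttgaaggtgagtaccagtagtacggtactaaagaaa
No motif matched in the stretches of mRpS23, mRpL20 and mRpS6. mRpL41 and mRpL23, also among the strongest, were left out. The first has no partner start within 500 bp of its summit, and the summit of the second lies outside both starts. In windows that reach 50 bp to each side of the summit, G and C made up 32.3% of bases at the 30 members' peaks and 35.6% at the 2353 other promoter peaks.

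The strongest peaks of the large subunit genes were at mRpL41, mRpL23, mRpL24, mRpL20 and mRpL34. mRpL41, a protein particular to mitochondria, had a signal of 2500.4 in the optimal list, rank 14 of 5208, and of 838, 488 and 1193 in replicates 1, 2 and 4. mRpL23, whose bacterial counterpart stands at the mouth of the exit tunnel, had 1612 in the optimal list and 543, 331 and 745 in the replicates. Both ranked among the first 119 regions of every replicate. mRpL24, also at the tunnel exit in bacteria, had 803 and replicate values of 259, 199 and 351. mRpL20, whose bacterial counterpart acts early in the assembly of the large subunit, had 567 with 210.2, 132 and 221. mRpL34 had 405 with 129, 78.4 and 194. All 5 lay above the last called signal of each replicate, which was 50.2, 52.2 and 56.0 in replicates 1, 2 and 4. The next large subunit genes were weaker. mRpL53 had 267 with 76.9, 112 and 68.9, called in all 3 replicates and the only one of these 8 with its highest value in replicate 2. mRpL37 had 259.7 with 92.2, 38.3 and 138, and was not called in replicate 2. mRpL44, a protein with the fold of an RNase III, had 234 with 67.5, 59.5 and 103.

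Among the small subunit genes the strongest peak was at mRpS10, with a signal of 2557 in the optimal list at rank 11 and 901, 515 and 1146 in replicates 1, 2 and 4. mRpS23 followed with 2168 and replicate values of 709.5, 556 and 907. In each replicate both stood among the first 27 regions. mRpS2 had 723 with 251, 155 and 329. mRpS6 had 449 with 139, 86.7 and 223. mRpS7, whose bacterial counterpart binds ribosomal RNA early in assembly of the small subunit head, had 362 with 117, 67.3 and 163. mRpS26 had 300.1 with 80.5, 79.5 and 144. These 6 were called in all 3 replicates. mRpS25, the only one of the 11 members on the X chromosome with a peak, had 255 with 81.5, 44.5 and 127 and was not called in replicate 2. mRpS22 had 238 with 64.5, 71.5 and 93.4 and was called in all 3.

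**Figure D1:**
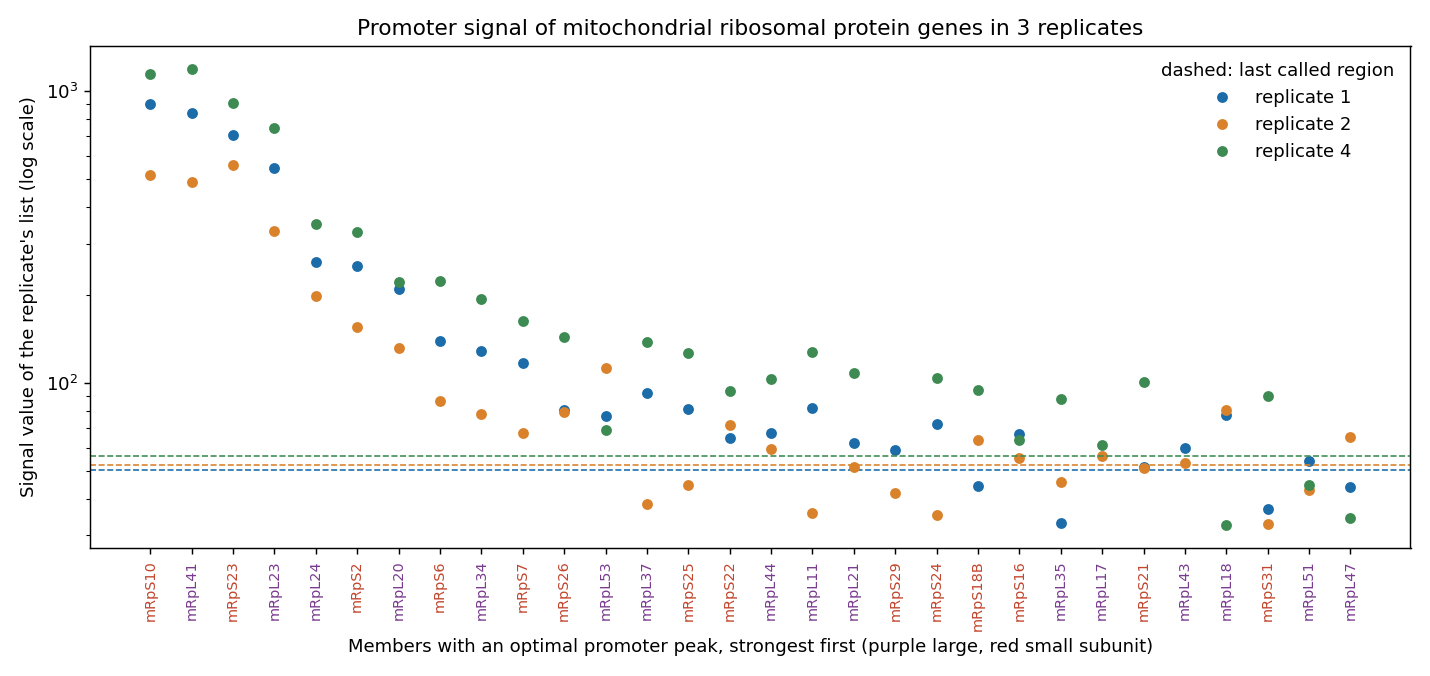
Signal values (log scale) of the 30 members with an optimal promoter peak in each replicate, ordered by optimal signal, with symbols in purple for the large and in red for the small subunit; a dashed line gives the signal of the last called region of each replicate (50.2, 52.2 and 56.0), and a missing point means that no region lay within 500 bp. The 4 strongest members stand well above the rest in all 3 replicates, and the weakest fall around the dashed lines.

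Of the 30 members, 15 were called in all 3 replicates, 10 in 2 and 5 in 1. The same split over all genes with a promoter peak is not given here. With optimal peaks matched within 100 bp in all 3 replicates, the share with a peak went from 41.1% to 20.5% for members. For all genes it went from 20.6% to 12.5%. Regions of any rank lay at 29, 30 and 28 of the 30 members in replicates 1, 2 and 4, with summits a median of 20, 17.5 and 20 bp from the optimal summit. Within 50 bp of it were 25, 24 and 23 of these summits. The median optimal signal of the 30 members was 236 (151 to 2557). Over all 2870 genes with a promoter peak the median was 298, with a shared peak counted once for each of its genes. Over all 5208 optimal peaks the median was 252. Among the strongest 1302 optimal peaks were 30% of the members, against 35.1% of all called genes. The medians of the subunits were close, 233 for the 16 large and 246 for the 14 small subunit genes.

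The remaining 14 members with a peak had optimal signals from 151 to 233, and only mRpS16 among them was called in all 3 replicates (189.9 in the optimal list, with 66.5, 55.2 and 63.6). mRpL11, whose bacterial counterpart forms the base of the factor-binding stalk, had 82.1, 35.7 and 128 in replicates 1, 2 and 4, mRpL21 had 62.0, 51.3 and 108, and mRpS24 had 72.0, 35.1 and 104. These 3 fell short in replicate 2 alone, as did mRpS21 (51.3 and 51.2 in replicates 1 and 2). mRpS18B had 44.3, 63.9 and 94.2 and fell short in replicate 1, while mRpL18 had 77.3, 80.9 and 32.6 and fell short in replicate 4. mRpL17 had no region in replicate 1 and 55.9 and 61.2 in the others, and mRpL43 had none in replicate 4 and 59.7 and 53.0 in the others. Called in 1 replicate only were mRpS29 (58.7, 42.0 and no region), a GTP-binding protein known in mammals as DAP3, and mRpL35 (33.0, 45.7 and 88.2). Over all 30 members, replicates 1 and 4 called 25 each and replicate 2 called 20. The same counts over all genes with a promoter peak are not given here.

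The members next to the end of the optimal list were close in signal. Just inside it stood mRpS31 (155; 36.9, 32.9 and 90.4 in replicates 1, 2 and 4), mRpL51 (153; 53.8, 43.0 and 44.7) and mRpL47 (151; 43.9, 65.2 and 34.3), each called in 1 replicate. Just outside it in the pooled list stood mRpS17 (148 at rank 5209; 58.7, 34.8 and 72.4), mRpL4 (148 at rank 5223; 55.8, 25.4 and 76.1) and mRpL16 (139 at rank 5647; 60.3 in replicate 2 and no region in the others). mRpS17 and mRpL4 were called in 2 replicates each, more than the 3 members just inside.

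The 43 members without an optimal peak included several core proteins of the large subunit. No peak was called at mRpL2 and mRpL3, whose bacterial counterparts border the peptidyl transferase centre, at mRpL12, the stalk protein that recruits translation factors, or at mRpL22 beside the exit tunnel. Of the 43, 6 were called in a replicate, namely mRpS17, mRpL4, mRpL16, mRpL1 (51.7 in replicate 1), mRpL28 (59.0 in replicate 2) and mRpL48 (54.5 in replicate 1 and 60.0 in replicate 2). Of the 43, 21 had a weaker region in the pooled list, and 9 had no region in any list: mRpL30, mRpL38, mRpL40, mRpL45, mRpL46, mRpS28, mRpS33, mRpS34 and mRpS35. Replicate 2 held some region, of any rank, at 32 of the 43, against 11 and 12 in replicates 1 and 4. The share of all genes with a region of any rank is not given here. These counts therefore do not set the members apart from other genes. Among 3 paralogs of bacterial S18, mRpS18B had a peak (signal 207), mRpS18A a pooled region with a signal of 40.0 and regions of replicates 2 and 4 with 21.7 and 27.4, none of them called, and mRpS18C only a region of replicate 2 with a signal of 23.1, also not called.

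By subunit, 14 of 26 small subunit genes (53.8%, Wilson interval 35.5 to 71.2) and 16 of 47 large subunit genes (34.0%, 22.2 to 48.3) had an optimal promoter peak. In replicates 1, 2 and 4 the small subunit share was 50%, 34.6% and 53.8%, a mean of 46.2% ± 10.2 (SD, n = 3), and the large subunit share was 34.0%, 29.8% and 27.7%, a mean of 30.5% ± 3.25. The small subunit was higher in 3 of 3 replicates, but large minus small was only -4.83 percentage points in replicate 2. The Wilson intervals overlap, but they cover the counting of genes only and do not test the difference. The difference of large minus small was -15.7 points ± 10.7, with an exact two-sided sign-flip permutation p of 0.25 (Benjamini-Hochberg adjusted 0.312 over 5 comparisons). With 3 replicates 0.25 is the smallest p this test can give, so no comparison could pass 0.05. Without replicate 4 the difference was -10.4 points, and it was -5.81 with promoters of 250 bp and -8.76 with replicate lists of 2604 regions. Subunits here follow the symbols. In mammals the counterparts of mRpS18A and mRpS30 sit in the large subunit, and with both counted there the shares were 32.7% and 58.3%.

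All members together were called in 39.7%, 31.5% and 37.0% of cases in replicates 1, 2 and 4, where 20.0%, 21.2% and 20.2% of all genes were. The mean was 36.1% ± 4.19 for members and 20.4% ± 0.649 for the other 13872 genes, a difference of 15.7 points ± 4.82 that was positive in 3 of 3 replicates (exact sign-flip permutation p = 0.25, adjusted 0.312). With replicate lists of 2604 regions it was 6.46 points. Genes numbered as bacterial proteins (up to L36 and S21) had an optimal peak at 16 of 42 (38.1%), and those with higher numbers at 14 of 31 (45.2%). In the replicates the difference of bacterial minus higher numbers was -3.84, 4.30 and 8.22 points (mean 2.89 ± 6.15, exact sign-flip permutation p = 0.5, adjusted 0.5), so its sign was not the same in all replicates, and the optimal list had the opposite sign to the mean. By arm, a peak was at 6 of 12 members on 2L (all genes 20.5%) and 7 of 12 on 2R (all genes 19.0%). It was at 7 of 17 on 3L (all genes 22.4%) and 9 of 21 on 3R (all genes 22.0%). On X it was at 1 of 11 (9.09%, Wilson interval 1.62 to 37.7, all genes 18.7%).

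**Figure D2:**
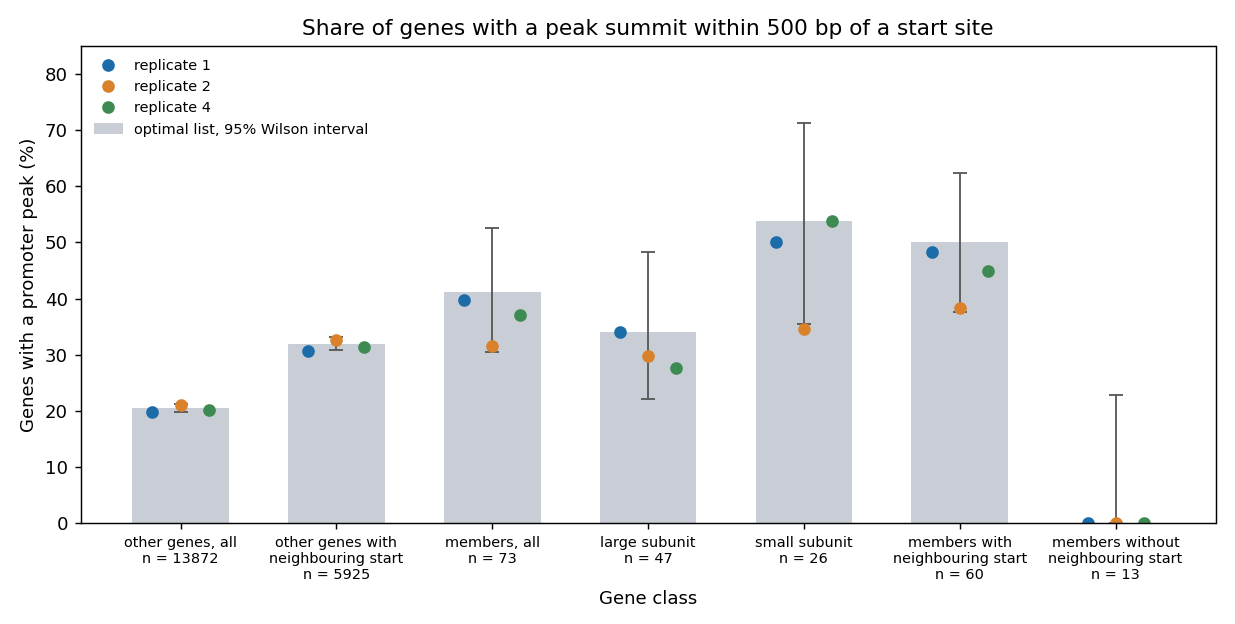
Share of genes (%) with a promoter peak, by gene class: bars and lines give the optimal list with its 95% Wilson interval (counting error only), and points give the 3 replicates. Members without a neighbouring start within 1000 bp stand at 0 in every list, and the share of small subunit genes varies most among replicates, from 34.6% to 53.8%.

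Every member with a peak had a close neighbour. Of the 73 members, 60 had the start of another protein-coding gene within 1000 bp, as did 5985 of all 13945 protein-coding genes. An optimal peak was at 30 of these 60 members (50%), where 32.2% of all genes with such a neighbour had one. None of the 13 members without a neighbour had one, which allows a share of up to 22.8% by the Wilson interval, where 11.8% of all genes without a neighbour had a peak. In the replicates the difference between the 2 kinds of members was 48.3, 38.3 and 45.0 points, a mean of 43.9 ± 5.09 (exact sign-flip permutation p = 0.25, adjusted 0.312). Set beside other genes with a neighbour, the members were higher by 17.6, 5.74 and 13.6 points in replicates 1, 2 and 4, a mean of 12.3 ± 6.03 (exact sign-flip permutation p = 0.25, adjusted 0.312). A single peak between close starts counts for both genes, so the peak cannot be assigned to the member from these lists.

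The neighbours were divergent. A head-to-head start lay within 1000 bp of 58 of the 73 members and of 5019 of all 13945 genes. Of these 58 members 30 had a peak (51.7%), where 36% of all genes in that arrangement did. The 2 members with a close neighbour on the same strand only, mRpL13 and mRpL36, had none. Among head-to-head members the peak was at 14 of 21 small subunit genes (66.7%) and 16 of 37 large subunit genes (43.2%). By distance between the starts, bins chosen after the data were seen, the peak was at 5 of 18 members within 100 bp of their neighbour (27.8%, other genes 28.8%), at 11 of 15 over 100 and up to 300 bp (73.3%, other genes 38.8%) and at 14 of 25 over 300 and up to 1000 bp (56.0%, other genes 36%). The share of members with starts within 100 bp was close to that of other genes, and the wider intervals held the higher shares, in bins of few members.

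A partner gene, with its own start within 500 bp of the same summit, was found for 29 of the 30 members (96.7%, against 56.2% of the other 2840 genes with a peak). All 29 nearest partners were head to head with the member, as were 91.1% of the nearest partners of other genes. The exception, mRpL41, has its divergent neighbour CG8079 762 bp away, beyond the limit. The partners of the strongest members were Art3, an arginine methyltransferase (mRpS10), CenG1A, a GTPase-activating protein of Arf (mRpS23), CG9004 (mRpL23), betaggt-I, a subunit of geranylgeranyl transferase (mRpL24), Mon1, which acts in endosome maturation (mRpS2), Icmt, a methyltransferase of prenylated proteins (mRpL20), Cip4, a membrane-bending F-BAR protein (mRpS6), Dg, or dystroglycan (mRpL34), and Cdk1, the mitotic kinase (mRpS7). Chromatin and genome proteins were Snr1, of the Brahma remodelling complex (mRpL44), rept, or reptin (mRpL21), rad50, of DNA repair (mRpS29), Kdm3, a histone demethylase, with CG8176 (mRpL47), and cg, a zinc finger protein (mRpS16). RNA proteins were AGO1, of the microRNA pathway, with CG33155 (mRpL53), and Tudor-SN (mRpL17). Partners that act in mitochondria include HtrA2, a protease (mRpL11), Mitofilin, which shapes the inner membrane (mRpL35), and Taz, or tafazzin, of cardiolipin synthesis (mRpL18). Partners not placed in a group here were CG13698 (mRpS26), nmdyn-D6 (mRpS25), CG5003 (mRpS22), Apc2 (mRpS24), Kua (mRpS18B), Droj2 (mRpS21), CG30183 (mRpL43), hzg (mRpS31) and Uba4 (mRpL51). These groups were not drawn from the data and may be incomplete.

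Within these intervals the summit stood nearer to the partner's start at 21 of 29 members, nearer to the member's own at 7, and equally far at mRpL53 (72.4% nearer to the partner, against 49.1% for other genes with a divergent partner). In the replicates the share was 66.7%, 59.1% and 68.0%, a mean of 64.6% ± 4.81 (SD, n = 3), and 50%, 49.9% and 49.3% for other genes. A promoter shared by 2 other genes counts once from each side, which holds the share of other genes near 50%. Members were counted from the member's side only, so the shares are not alike in kind. The comparison was chosen after the data were seen and was not tested. The median distance from the summit was 158 bp to the member's start and 115 bp to the partner's, with the 2 starts 291 bp apart (20 to 695; 288 for other genes). At mRpS23 the summit was 377 bp from the member and 115 bp from CenG1A, and at mRpL44 257 bp and 33 bp from Snr1. At mRpS31 it was the reverse, 38 bp from the member and 419 bp from hzg. Several were in the middle, such as mRpL24, 111 bp from its start and 107 bp from that of betaggt-I. The summit was between both starts at 25 of the 29 (86.2%, other genes 78.3%). The other 4 were mRpL11, mRpL18, mRpL23 and mRpL51, whose starts lie 126, 20, 50 and 31 bp from their partner's. mRpL23 was the only member with its summit downstream of its own start, by 88 bp.

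**Figure D3:**
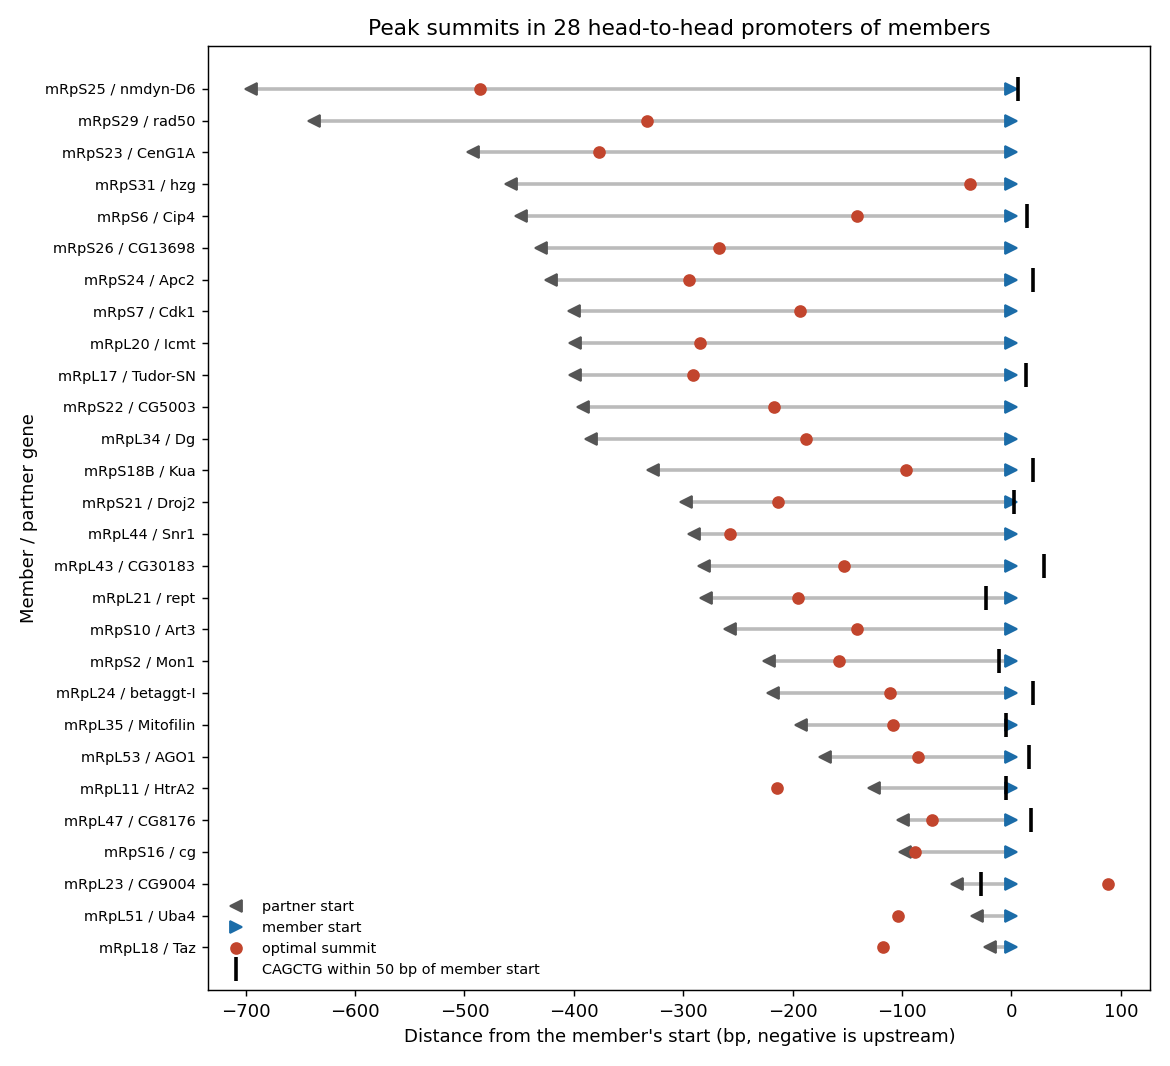
Position of the optimal summit (red) between the start of the member (blue, at 0) and of its nearest partner (grey), in bp, for 28 of the members that share a peak, ordered by the distance between the starts; black ticks mark CAGCTG within 50 bp of the member's start. In 24 rows the summit lies between the starts, in 21 nearer to the partner, and the ticks stand apart from the summits.

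The hexamer CAGCTG, an E-box bound by some basic helix-loop-helix factors, was, of the 11 motifs searched, the one in which members differed most from all promoters in percentage points. From 250 bp before to 50 bp after the gene's start it was in 18 of 30 members with a peak (60.0%) and 22 of 43 without (51.2%), against 17.7% of all promoters and 22.1% of the other genes with a peak. The hexamer reads the same on both strands. It stood close to the start: within 50 bp of the gene's 5' end, a window chosen after the data were seen, it was in 35 of 73 members (47.9%, Wilson interval 36.9 to 59.2), against 9.34% of all genes. The share was 53.3% with a peak and 44.2% without, and 48.9% in large and 46.2% in small subunit genes. Of the 9 members with no region in any list, 7 had it. It was at 4 of the 29 nearest partners (13.8%). The following sites, 30 bases each on the strand of the gene with CAGCTG in capitals, come from 6 members with a peak (mRpL24, mRpS2, mRpS6, mRpL23, mRpL35 and mRpS21) and, after them, 6 without (mRpL40, mRpL46, mRpS34, mRpS35, mRpL2 and mRpL33), to show that the same site occurs in both.
mRpL24: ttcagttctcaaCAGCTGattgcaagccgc
mRpS2: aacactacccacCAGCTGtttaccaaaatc
mRpS6: ctttccttgcatCAGCTGttaacactatca
mRpL23: gtggttgacaatCAGCTGtttaaaacaagt
mRpL35: gtgaatggcacaCAGCTGactgttacgcga
mRpS21: agtgatattcatCAGCTGtttagcagtaca
mRpL40: cagcaacaaaaaCAGCTGttcgtacattac
mRpL46: tgtgccgcaaatCAGCTGttccggctctgg
mRpS34: agccagccggcaCAGCTGttcgaccttccc
mRpS35: agtttctgtaaaCAGCTGattgcttgctat
mRpL2: aacgccgcgtaaCAGCTGttttcagccgca
mRpL33: gataggcgcagtCAGCTGttcttcgttcct
In that order they lie at chr2L:4945324-4945353, chr2L:4850413-4850442, chr3L:4364552-4364581, chr3L:2373715-2373744, chr3R:22023510-22023539, chr3R:13381790-13381819, chr3R:11407929-11407958, chr3L:1777425-1777454, chr3L:16348064-16348093, chr3L:2780875-2780904, chr3L:11120845-11120874 and chrX:4322207-4322236. The first base of the hexamer was 45 bp upstream to 38 bp downstream of the start over the 35 members, with a median of 8 bp downstream, so that in 22 of them it lay in the annotated transcript.

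At the 16 members with both a peak and CAGCTG within 50 bp of the start, the summit was a median of 153 bp from the hexamer (93 to 494). No summit was within 50 bp. Most summits lay further than that from the start, so this distance largely follows from how the hexamers were chosen. In windows that reach 50 bp to each side of the summit CAGCTG was in 0 of 30 members, where 5.40% of other promoter peaks had it. In windows that reach 100 bp to each side it was in 4 of 30 (13.3%), close to the 12% of other peaks. The other motifs were few at the 30 summits. The DRE motif TATCGATA was in none (others 3.23%), Motif 1 GGTCACAC in none (2.21%), the cAMP response element TGACGTCA in none (0.255%) and its core TGACG in 4 (13.3%, others 7.65%). TATAAA was in 7 (23.3%, others 20.8%), TGCGCA in 2 (6.67%, others 2.29%), and TGTTTAC and Motif 7 CANCNCTA in 1 each (3.33%, others 3.40% and 6.93%). CACGTG and GAGAGAG were in none (others 1.15% and 1.36%). All were searched on both strands, and TGACGTCA contains TGACG. In the promoter windows DRE was in 20% of members with a peak and 20.9% without, against 9.36% of all promoters.

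**Figure D4:**
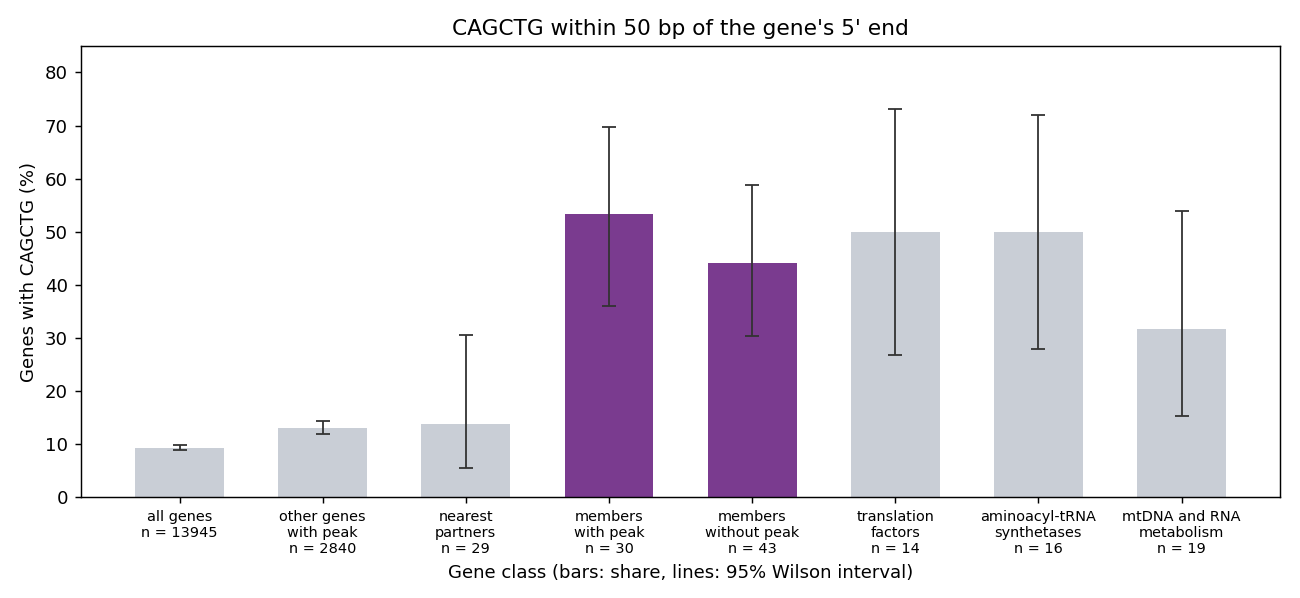
Share of genes (%) with CAGCTG within 50 bp of the gene's 5' end, by gene class, with 95% Wilson intervals (counting error only). Members with a peak (53.3%) and without (44.2%) stand above all genes (9.34%) and above their own partners (13.8%).

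Other nuclear genes of mitochondrial gene expression were taken from lists drawn up with earlier results of these data known. Of 14 mitochondrial translation factors 2 had a promoter peak (14.3%), GatA of the amidotransferase that completes glutaminyl-tRNA (signal 339; 126, 58.7 and 142 in replicates 1, 2 and 4) and waw, a GTPase related to elongation factors (156; 38.1, 71.4 and 43.6). Of 16 mitochondrial aminoacyl-tRNA synthetases 1 had one (6.25%), ArgRS-m, with a signal of 271 and 81.1, 69.4 and 92.0 in the replicates. The Wilson intervals of the 2 lists, 4.01 to 39.9 and 1.11 to 28.3, both hold the 20.6% of all protein-coding genes. CAGCTG was within 50 bp of the start in 7 of these 14 and 8 of these 16 genes (50% each, all genes 9.34%). Of 19 genes of mitochondrial DNA and RNA metabolism 8 had a peak (42.1%, Wilson interval 23.1 to 63.7) and 6 the hexamer (31.6%). The strongest were PNPase, a ribonuclease (2501; 812, 587 and 1107), SLIRP2 (1589.9; 527, 332 and 721) and SLIRP1 (678; 225, 179.8 and 258), RNA-binding proteins, and mtSSB, which coats single-stranded mitochondrial DNA (393; 157, 87.5 and 153). The mitochondrial ribosomal proteins tko and bonsai, which the symbols leave out of the 73, are the counterparts of bacterial S12 and S15. Neither had an optimal peak, each had a region in replicate 2 alone of the replicates (47.0 and 31.1), and both had the hexamer.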

How the data were processed

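Peaks were deposited by the authors for 3 replicates, pooled and as an optimal list; per the deposited inventories, the pooled list came from the 3 alignments with a control and the optimal list from irreproducible discovery rate. For the aligner, the caller and the threshold of that rate, nothing is given in the sources used here. The deposited signal value carries no stated normalization, and the deposited summit offset, counted from the region's start, gave positions. Depth is unknown, so intervals cover the counting of genes only. Whether the replicates also differ in technical ways beyond their biosamples is not stated.

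The dm6 lists were used, and the dm3 lists were not. Replicate lists, which hold background too, were limited to their 5208 strongest regions. Start sites were those of all protein-coding transcripts in Ensembl release 115, and sequence was that of the RefSeq Release 6 assembly, in which 73 of 73 members had the same gene ends. The replicate was the unit of 5 exact two-sided sign-flip permutation tests, adjusted by Benjamini-Hochberg. Members and lists were chosen with earlier results of these data known. The rule for named genes gave replicate values for the 8 strongest members of each subunit, the 3 members on each side of the optimal list's end, members whose call differed between replicates, and up to 4 genes per mitochondrial list. None of 15 symbols listed for mitoribosome assembly matched the annotation, nor did 6, 2 and 2 symbols of the other lists. Alternatives were promoter widths, list lengths, start sites, matched peaks, motif windows and replicates left out. Added after the data were seen were optimal peaks matched in the remaining replicates, mRpS18A and mRpS30 counted in the large subunit, and the position of CAGCTG. The code ran in Python 3.11.15 with scipy 1.17.1, numpy 2.4.6 and matplotlib 3.10.9 and was tested on simulated data. The name of 1 partner gene is not reported here.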

Additional observations from a re-analysis of the deposited data

How the results depend on the processing

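None of the 5 tested differences changed its sign under the alternatives run. For all but bacterial minus higher numbers the sign was the same in all 3 replicates, so leaving out a replicate could not change it. Replicate lists of 2604 regions were run only for members against other genes and for large against small subunit. In the optimal list bacterial minus higher numbers had the opposite sign (38.1% against 45.2%). The share of members with an optimal promoter peak was 19.2% among the strongest 2604 peaks (all genes 12.3%) and 20.5% with peaks matched within 100 bp in all 3 replicates, which left 15 members (all genes 12.5%). With peaks matched in both remaining replicates it was 20.5% to 28.8% when each replicate was left out in turn (all genes 13.4% to 15.8%). Members that share their peak numbered 19 of 23 called at a promoter width of 250 bp, 13 of 14 among the strongest 2604 peaks, 14 of 15 with peaks matched in all 3 replicates, and 14 of 15 to 20 of 21 with each replicate left out, so that outside the 250 bp setting the counts fell with the number called. The mean share in the replicates was 28.3% at 250 bp, 18.7% with lists of 2604 regions and 49.8% with 10000, and members minus other genes was 12.4, 6.46 and 20.2 points. The difference of bacterial minus higher numbers was 0.23 points without replicate 4, 6.26 without replicate 1, 9.96 at 250 bp, 4.48 at 1000 bp and 6.14 with 10000 regions. Large minus small in the replicates was -5.81 points at 250 bp, -8.76 with 2604 regions, -10.3 with 10000 and -20.7 with mRpS18A and mRpS30 moved; in the optimal list (-19.8) it was -10.8 at 250 bp, -12 among the strongest 2604 peaks and -25.7 with both moved. In 8 alternatives, 10 of the 30 members always kept a promoter peak: mRpL23, mRpL24, mRpL34, mRpL41, mRpL53, mRpS2, mRpS6, mRpS7, mRpS10 and mRpS26, the last through a second, weaker peak (signal 182) at 250 bp. These 8 are not independent checks. A width of 1000 bp cannot lose a peak found within 500 bp, and a peak matched in all 3 replicates is matched whichever replicate is left out. The same count over all called genes is not given here, so this count does not set the members apart from other genes. The cause of the shifts under the alternatives was not tested. The optimal list itself could not be rebuilt without a replicate. No paired analysis was possible because the replicates form 1 group.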
